A study of Mus musculus with 8 samples.

Results

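LPS and menthol were compared directly in mouse macrophages: the 2 arrays of cells given only bacterial lipopolysaccharide (LPS) were set against the 2 arrays of cells given only menthol (M). These are 4 of the 8 arrays of the series, which were chosen by their treatment label alone, and all genes were compared. Of 18193 genes on the array, 8908 lay above a minimum level and were tested. All 8 arrays come from RAW 264.7, an established mouse macrophage-like line, grown in DMEM with serum, and the expression values are log2 signals of Affymetrix probe sets. LPS cells received LPS at 100 ng/ml for 6 h with no menthol, and M cells received menthol for 1 h with no LPS. The other arrays were cells labelled as given control treatment (C, 2 arrays) and cells given menthol and then LPS (LPS+M, 2 arrays). LPS+M cells received menthol for 1 h and then LPS at 100 ng/ml for 6 h. The labels give no menthol dose and no harvest time for C and M, so that a difference in time between M and LPS cells and the difference in treatment cannot be told apart. The arrays of a group are labelled biological replicates, but nothing says that they came from separate cultures, and so the p-values reflect only how far the arrays of a group lay apart, which may be technical variation.

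LPS is a cell wall component of Gram-negative bacteria that macrophages sense through TLR4 with its co-receptors. TLR4 signals through MyD88 to NF-κB and the MAP kinases, which switch on cytokines and chemokines, and through TRIF to IRF3 and type I interferon, which in turn switches on antiviral genes. Menthol is a cyclic monoterpene alcohol of mint, known mainly as an agonist of the cold-sensing channel TRPM8. Cells under many kinds of chemical or nutrient stress run the integrated stress response, in which the transcription factor ATF4 switches on amino acid transporters, amino acid synthesis and genes such as Trib3 and Chac1.

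The 2 arrays of a group correlated at 0.9988 to 0.9994 across probe sets, and LPS with M arrays at 0.9955 to 0.9962. Probe sets are not independent replicates. All 14 macrophage markers on the array passed the minimum level, and their summed level was 17.66 to 17.67 in M and 17.52 to 17.53 in LPS on the log2 scale. Within them Adgre1, which encodes F4/80, was higher in LPS, and the Fc receptors Fcgr1 and Fcgr3 were lower. All T cell, fibroblast and epithelial markers lay under the minimum. Of 6 B cell markers Ighm and Blnk passed it, and Ighm was higher in LPS (1.30 ± 0.07), with a summed level of the list of 11.19 to 11.22 in M and 11.76 to 11.80 in LPS. The lineage markers Cd79a, Cd79b, Ms4a1 and Pax5 lay under the minimum, and the part of B cell genes in the differences was not tested. Arrays read the RNA of whole cultures, in which fewer cells of a kind and less RNA per cell cannot be told apart. Trpm8 lay under the minimum level.

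In LPS compared to M, 409 genes were higher (4.59% of those tested) and 597 were lower (6.7%), with an adjusted p (Benjamini-Hochberg) under 0.05 and at least a 1.5-fold difference. The genes lower in LPS were more numerous, but the large differences lay on the other side: 39 genes were at least 4-fold higher in LPS and 20 at least 4-fold lower, and 13 against 2 were at least 8-fold apart. At least 16-fold differences were found for 4 genes, all higher in LPS. The median difference over all tested genes was -0.06 on the log2 scale. When the tested genes of all arrays were brought to 1 common median, a setting chosen after seeing the data, 474 genes were higher and 495 lower. Differences below are LPS minus M on the log2 scale ± the standard error of the limma fit over all 8 arrays, with 2 arrays per group. Counts of called genes in the lists below are to be read beside the shares of all tested genes, 4.59% higher and 6.7% lower.

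**Figure D1:**
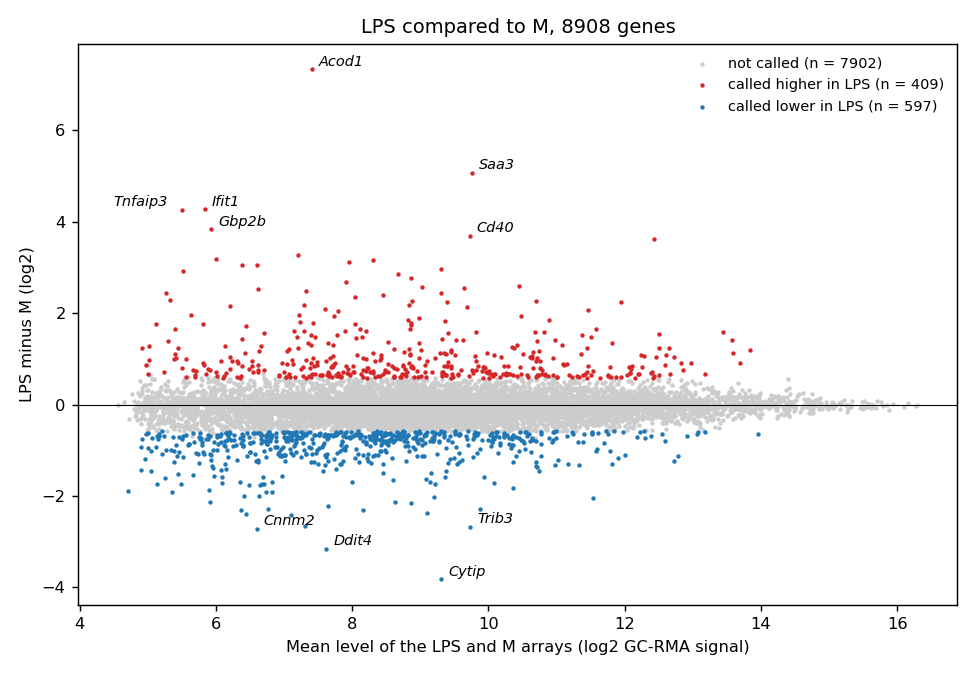
Difference between LPS and M (log2, y axis) against the mean log2 level of the 4 arrays (x axis), 1 point per gene. The 409 genes called higher in LPS (red) reach 7.33 for Acod1, and the 597 called lower (blue) reach -3.82 for Cytip.

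The largest difference was that of Acod1, the gene of the itaconate-producing enzyme of activated macrophages. Its level was 3.64 and 3.83 in the M arrays and 11.08 and 11.06 in the LPS arrays, a difference of 7.33 ± 0.12 (adjusted p = 1.15e-07). The control arrays (4.24 and 4.61) and the M arrays all lay under the minimum level for a gene to be tested, so that nothing is read from the gap between them. Saa3, an acute-phase serum amyloid protein, followed with 7.33 and 7.10 in M and 12.23 and 12.36 in LPS. Its LPS arrays lay 33.8-fold above the M arrays (5.08 ± 0.11, adjusted p = 2e-07), while M and control arrays overlapped (control 7.06 and 7.16).

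Ifit1, an interferon-induced protein that binds foreign RNA, had 3.84 and 3.56 in M and 8.04 and 7.90 in LPS (4.27 ± 0.15, adjusted p = 1.89e-06). Tnfaip3 encodes A20, a ubiquitin-editing brake on NF-κB, and had 3.35 and 3.40 in M and 7.83 and 7.44 in LPS (4.26 ± 0.27, adjusted p = 2.3e-05). In both genes the M arrays lay under the minimum level of 4.84, where such values are compressed, so that the fold is imprecise. The same holds for Acod1, Traf1, Gbp7 and Cd274, and for the interferon-inducible GTPase Gbp2b, which had 4.10 and 3.94 in M and 7.84 and 7.86 in LPS (3.83 ± 0.11).

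Cd40, the costimulatory receptor that T cells engage, was well measured in both groups, at 8.0 and 7.75 in M and 11.48 and 11.67 in LPS (3.69 ± 0.11, adjusted p = 7.84e-07). All 3 of its probe sets above the minimum were called higher. The chemokine Ccl3 had 10.51 and 10.73 in M and 14.17 and 14.30 in LPS, 12.3-fold higher (3.62 ± 0.09). The remaining genes among the 12 with the largest rise were Gbp2 (3.26 ± 0.13), the signalling adapter Traf1 (3.19 ± 0.22), the siderophore binder Lcn2 (3.17 ± 0.13), the ubiquitin ligase subunit Asb2 (3.12 ± 0.09) and the zinc finger factor St18 (3.06 ± 0.18). In each of these 12 genes every LPS array lay above every M array, which follows largely from how they were chosen.

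Among genes lower in LPS the largest difference was that of Cytip, which encodes a scaffold that binds cytohesin-1 and regulates integrin adhesion. Its level was 11.21 and 11.23 in M and 7.32 and 7.47 in LPS, 14.2-fold lower (-3.82 ± 0.08, adjusted p = 2e-07), and a second probe set of the gene gave -3.69. Control arrays lay between the treated groups, at 9.22 and 9.33. Ddit4, a stress-induced inhibitor of mTORC1, had 9.19 and 9.21 in M and 6.05 and 6.04 in LPS (-3.15 ± 0.09, adjusted p = 7.84e-07). Its control arrays lay nearer to LPS, at 6.64 and 6.93.

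Cnnm2, a transporter-like protein of magnesium balance, had 7.97 and 7.94 in M and 5.41 and 5.07 in LPS (-2.72 ± 0.13). Trib3, a pseudokinase induced by ATF4 and CHOP, had 11.07 and 11.08 in M and 8.32 and 8.46 in LPS (-2.68 ± 0.10, adjusted p = 2.17e-06). Abca1, which exports cholesterol to lipoproteins, had 11.10 and 10.95 in M and 8.84 and 8.65 in LPS (-2.28 ± 0.09). In these 3 genes M was also called higher than control, by 2.28, 1.91 and 1.72, whereas LPS was called lower than control only in Trib3 (-0.77).

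The other genes among the 12 with the largest fall were the arrestin-domain protein Arrdc3 (-2.65 ± 0.19), the phosphodiesterase Pde3b (-2.42 ± 0.21), Ctla2a, which is similar to a cathepsin propeptide (-2.39 ± 0.09), cyclin G2 (Ccng2, -2.37 ± 0.11), the stress kinase Map3k5 (-2.30 ± 0.21), Pxdc1 (-2.30 ± 0.10) and the IL-18 receptor accessory chain Il18rap (-2.30 ± 0.26). Il18rap differed from the rest of these genes in its control level. Its arrays read 7.83 and 7.85 in control, 7.79 and 8.04 in M and 6.10 and 5.14 in LPS, so that M overlapped control and LPS lay below both. The LPS arrays of Pde3b (5.50 and 6.28) and Map3k5 (4.83 and 5.59) lay far apart like those of Il18rap, and these 3 genes were not called by Welch's test, which the study's methods name and which does not share the spread across genes.

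**Figure D2:**
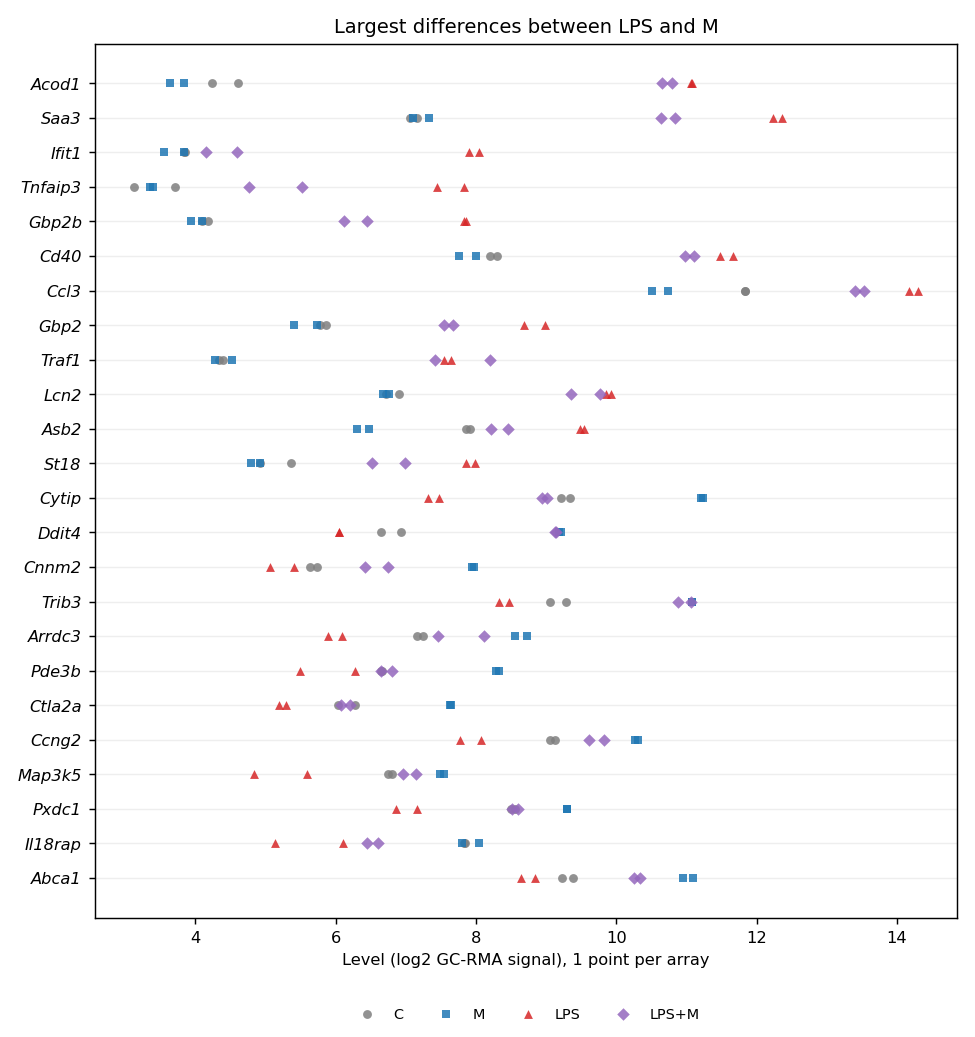
Log2 level of the 12 genes with the largest rise (top) and the 12 with the largest fall (bottom) in LPS compared to M, 1 point per array, for all 4 groups. LPS (triangles) and M (squares) do not overlap in any of the 24 genes, which were chosen for their distance between LPS and M. The LPS+M arrays of Ddit4 and Trib3 sit next to the M arrays.

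In some genes the LPS and M arrays lay on opposite sides of the control arrays. The values of LPS and M against control are given side by side, and both comparisons use the same 2 control arrays, so that they are not independent. For reference, 3.17% of tested genes were called higher and 2.96% lower in LPS than in control, and 3.01% higher and 1.54% lower in M than in control. Asb2 read 6.31 and 6.47 in M, 7.91 and 7.86 in control and 9.54 and 9.48 in LPS. It was thus lower than control by M (-1.50) and higher by LPS (1.62), with 3 groups that did not overlap. Ccl3 was likewise -1.21 in M and 2.41 in LPS against control, and the related chemokine Ccl4 was -1.01 and 1.26.

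The G protein-coupled receptor gene Gpr31b (-0.87 in M and 1.91 in LPS against control), Fam241a (-0.85 and 1.34) and the secreted-protein kinase Fam20c (-0.78 and 0.75) completed the genes with the largest opposed changes of this direction. In the other direction Cytip was 1.94 in M and -1.88 in LPS against control. Arrdc3 (1.44 and -1.21), Ccng2 (1.20 and -1.17) and Ctla2a (1.48 and -0.91) moved alike. Havcr2, which encodes the inhibitory receptor TIM-3, read 9.64 and 9.74 in M, 8.55 and 8.55 in control and 7.31 and 7.82 in LPS. Cebpa, a transcription factor of myeloid development, read 5.59 and 5.72 in M, 4.58 and 4.70 in control and 4.19 and 3.36 in LPS, where the control and LPS arrays all lay below the minimum level, so that their gap is weakly measured.

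**Figure D3:**
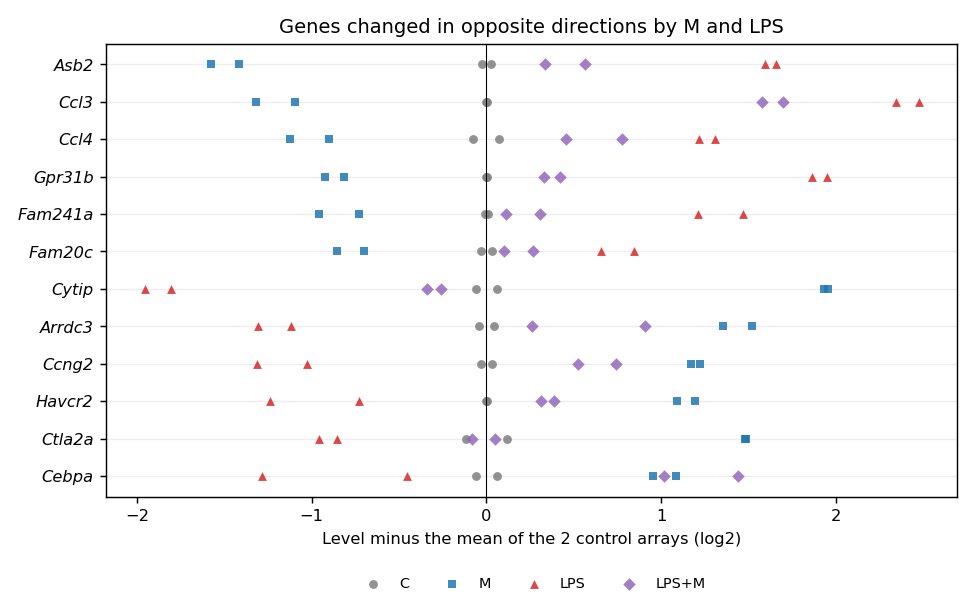
Log2 level minus the mean of the 2 control arrays for the 12 genes with the largest opposed changes, 1 point per array. M (squares) and LPS (triangles) lie on opposite sides of 0 in all 12 genes, which is how they were chosen. LPS+M (diamonds) lies between LPS and M, except for Cebpa, where 1 of its arrays lies above both M arrays.

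Genes of the interferon response were higher in LPS. Of 8 tested guanylate-binding and immunity-related GTPases, which attack the vacuoles of intracellular pathogens, 5 were higher and none lower, with a median difference of 1.78 against -0.06 over all tested genes. Gbp3 read 7.90 and 7.76 in M and 10.79 and 10.80 in LPS (2.97 ± 0.09), and Gbp7 read 3.74 and 4.36 and 6.62 and 6.35 (2.44 ± 0.18). The 3 members not called were Igtp, Irgm1 and Irgm2. The minimum level is set on the mean over all 8 arrays. Gbp2b, Gbp7 and Ifit1 passed it only through arrays of cells given LPS, so that the counts and medians depend on this filter. With no filter on low values the median over the 11 GTPases on the array was 0.45, with 5 higher and 1 lower. Of 20 tested antiviral interferon-stimulated genes 10 were higher and none lower, with a median of 0.62. Beside Ifit1 these included Rsad2, which encodes viperin (2.18 ± 0.19), the ISG15 protease Usp18 (2.09 ± 0.15) and the chaperone Rtp4 (1.95 ± 0.16). Rsad2 read 5.88 and 6.53 in M and 8.41 and 8.36 in LPS, and it was the only one of these 4 in which M was called higher than control (0.88). With no filter the median over the 28 antiviral genes on the array was 0.41, with 11 higher and none lower. Of 13 interferon receptors, kinases and regulatory factors only the kinase Tyk2 passed the fold minimum (0.60 ± 0.08), with 3 higher and 5 lower at an unadjusted p under 0.05 and values from -0.56 to 0.60. Tyk2 was not called without LPS replicate 2 (0.49) or with equal medians of all probe sets (0.58).

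Promoters are shown for genes of these lists that were higher in LPS, in the 250 bases before the RefSeq start site on GRCm38.p6, in the direction of transcription. Capitals mark the letters GAAANNGAA on either strand, the core of the interferon-stimulated response element. Ifit1 (chr19:34640639-34640888, plus strand) holds 3 matches, a pair of which overlap, and Gbp2 (chr3:142620413-142620662, plus strand) holds 1.
Ifit1: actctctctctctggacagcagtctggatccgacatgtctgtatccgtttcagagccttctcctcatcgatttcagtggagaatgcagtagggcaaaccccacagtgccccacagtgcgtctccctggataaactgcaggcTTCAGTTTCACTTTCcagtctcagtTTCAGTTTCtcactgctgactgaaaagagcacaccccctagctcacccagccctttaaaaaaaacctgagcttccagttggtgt
Gbp2: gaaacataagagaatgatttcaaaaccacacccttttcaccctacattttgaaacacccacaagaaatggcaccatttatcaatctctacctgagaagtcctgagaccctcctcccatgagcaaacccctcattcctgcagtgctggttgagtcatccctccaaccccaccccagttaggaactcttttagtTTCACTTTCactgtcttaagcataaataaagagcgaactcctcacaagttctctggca
These letters occur in 7.13% of all 32851 promoters and in 7.28% of tested genes with a promoter. They occur in 13.4% of genes higher in LPS (44 of 329) and in 5.67% of genes lower in LPS (27 of 476). Of the 8 tested GTPases 7 hold a match, Igtp, Irgm1 and Irgm2 among them, and of 15 antiviral genes with a promoter 6 do. Of the 7 called antiviral genes with a promoter 2 hold them, Ifit1 and Rsad2, and the other holders, Bst2, Ifih1, Oas1a and Trim30a, were not called. A match is a description of the letters and not evidence of binding.

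Chemokines differed strongly, and in several of them M lay below control. Of 7 tested CC chemokines 5 were higher in LPS and none lower, with a median of 1.82, beside medians of 0.73 for LPS and -1.01 for M against control. Ccl2, which recruits monocytes, read 10.73 and 10.92 in M, 12.35 and 12.35 in control and 13.08 and 13.08 in LPS (2.25 ± 0.09, adjusted p = 3.71e-06). Its gap from M to control (-1.52) was larger than that from control to LPS (0.73). Ccl12 behaved alike, at 8.45 and 8.44 in M, 9.84 and 9.86 in control and 10.21 and 10.34 in LPS (1.82 ± 0.07), where LPS was not called against control (0.42). Ccl5, in contrast, had M arrays (7.96 and 8.04) that lay just above control (7.83 and 7.93) and LPS arrays at 9.15 and 9.29 (1.22 ± 0.08). Ccl4 had 2.27 ± 0.12, while Ccl9 (0.56 ± 0.07) and Ccl6 (0.27 ± 0.08) stayed under the fold minimum. A second Ccl9 probe set gave 0.75 and was called higher. Ccl7 lay under the minimum level, where the fit with no filter gave 2.14 ± 0.14, and Ccl17 and Ccl22 lay there without a call.

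Among CXC chemokines the interferon-induced Cxcl10 read 6.43 and 6.70 in M and 9.24 and 9.25 in LPS (2.68 ± 0.13), and its M arrays overlapped control (6.48 and 6.65). The neutrophil attractant Cxcl2 had 1.24 ± 0.12, and Cxcl16 was not called (0.42 ± 0.08). Cxcl1, Cxcl3, Cxcl5, Cxcl9, Cxcl11 and Cxcl14 lay under the minimum level. Of 6 tested cytokines Tnf was higher, at 8.43 and 8.31 in M and 10.93 and 10.92 in LPS (2.55 ± 0.10, adjusted p = 2.26e-06), with M and control (8.29 and 8.55) overlapping. The inflammasome product Il18 (-0.89 ± 0.10) and the costimulatory ligand Tnfsf9 (-0.89 ± 0.07) were lower in LPS. Il1b lay under the minimum level on average over the arrays, and the fit with no filter gave 3.09 and 3.08 in M and 5.90 and 5.41 in LPS (2.57 ± 0.15). Il6 and Csf3 were not called there (0.23 ± 0.09 and 0.06 ± 0.04).

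The NF-κB system and its inhibitors were higher in LPS for 9 of 12 tested genes and lower for none, with a median of 0.96. Several of the called genes restrain the pathway. Beside Tnfaip3 these were Nfkbib, Tnip1 and Nfkbia, which encodes the inhibitor IκBα. Nfkbia read 13.25 and 13.22 in M and 14.40 and 14.46 in LPS (1.19 ± 0.10). The nuclear IκB proteins Nfkbiz (2.60 ± 0.10) and Bcl3, which are not counted among these inhibitors, were called too. A second probe set of Nfkbiz gave -0.18 and was not called. The kinase Ikbke (2.44 ± 0.08) and the subunits Nfkb2 and Relb were also called, whereas Rel, Rela and Nfkbie were not. The promoter of Nfkbia (chr12:55492648-55492897, minus strand) holds 2 matches to GGGANTTTC, the NF-κB letters searched on either strand, shown in capitals.
Nfkbia: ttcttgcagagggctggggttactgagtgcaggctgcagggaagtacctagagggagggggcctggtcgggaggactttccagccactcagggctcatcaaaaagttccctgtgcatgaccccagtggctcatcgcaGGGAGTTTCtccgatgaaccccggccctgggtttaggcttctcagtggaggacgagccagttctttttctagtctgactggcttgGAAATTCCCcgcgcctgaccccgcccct
These letters occur in 0.941% of all promoters, in 3.04% of genes higher in LPS (10 of 329) and in 0.84% of genes lower in LPS (4 of 476). Of the 7 called genes of the NF-κB list with a promoter 2 hold them, Nfkb2 and Nfkbia. No tested CC chemokine with a promoter in the table holds them within this window.

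Feedback inhibitors of cytokine and kinase signalling were divided. Of 17 tested genes 3 were higher in LPS, the RNase Zc3h12a (2.53 ± 0.19), the IRAK-M gene Irak3 (2.26 ± 0.06) and Socs3 (2.13 ± 0.12), and 3 were lower, the MAP kinase phosphatases Dusp6 (-1.33 ± 0.07), Dusp1 and Dusp5. Socs3 read 7.66 and 7.55 in control, 8.76 and 8.46 in M and 10.64 and 10.85 in LPS, so that menthol alone lay above control (1.01) and LPS further above. Among Toll-like receptors, adapters and kinases 4 of 16 were higher, led by the kinase Map3k8 (2.15 ± 0.14), Tlr1 (1.86 ± 0.08) and Tlr2 (1.24 ± 0.07), and 3 were lower, Traf6 (-1.15 ± 0.19), Tlr7 and Tirap. A second probe set of Traf6 gave -0.28 and was not called. Called in either direction were 35.3% of the feedback inhibitors and 43.8% of the Toll-like receptor list, beside 11.3% of all tested genes. Tlr4 itself, looked up after the other values were seen, read 11.62 and 11.54 in M and 11.01 and 11.00 in LPS, and its difference of -0.57 ± 0.09 fell just short of the fold minimum.

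Enzymes of inflammatory metabolites were higher in LPS for 5 of 9 tested genes and lower for 1, with a median of 1.09. Beside Acod1 these were Ptgs2, the cyclooxygenase of inflammation, at 9.48 and 9.55 in M and 11.47 and 11.42 in LPS (1.93 ± 0.13), the mitochondrial superoxide dismutase Sod2 (1.58 ± 0.07), the arginine transporter Slc7a2 (1.26 ± 0.09) and the NADPH oxidase subunit Cybb. The leukotriene enzyme Alox5 was lower (-0.62 ± 0.10). Nos2, Arg1, Arg2, Ass1 and Ptges lay under the minimum level, and Acod1 passed it only through arrays of cells given LPS. With no filter on low values the median over the 14 genes on the array was 0.16, with 5 higher and 1 lower. Surface molecules of T cell contact split between the treatments. Cd40, the ligand Cd274 (1.65 ± 0.15) and the adhesion molecule Icam1 (1.58 ± 0.06) were higher in LPS, whereas Cd86 was lower. Cd86 read 9.08 and 9.11 in control, 10.24 and 10.20 in M and 9.07 and 8.96 in LPS (-1.20 ± 0.07, adjusted p = 1.48e-05), so that LPS was not called against control (-0.08) and M lay above both. The other 12 of 16 genes of costimulation and antigen presentation were not called.

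Of 12 acute-phase and secreted proteins 4 were higher in LPS, Saa3, Lcn2, the scavenger receptor Marco (1.13 ± 0.07) and the collagenase Mmp13 (1.10 ± 0.13). Of 18 death receptors, caspases and BCL2 family genes 6 were higher, among them the death receptor Fas, at 4.94 and 5.22 in M and 8.13 and 8.14 in LPS (3.06 ± 0.18), the LPS-sensing caspase gene Casp4 (2.24 ± 0.10) and the inhibitor Birc3. The BH3-only genes Pmaip1 (-1.12 ± 0.10) and Bcl2l11 were lower. The called genes of this list thus include death-promoting and death-inhibiting members in the same direction. Called in either direction were 33.3% of the acute-phase list and 44.4% of the death and BCL2 list, beside 11.3% of all tested genes.

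The integrated stress and amino acid response was the list with the most genes lower in LPS. Of 26 tested genes 13 were lower and 1 higher, with a median of -0.58, beside medians of -0.05 for LPS and 0.65 for M against control. Beside Ddit4 and Trib3 the largest were Chac1, which degrades glutathione, and the transcription factor Atf5. Chac1 read 7.57 and 7.94 in control, 8.84 and 8.86 in M and 7.20 and 7.10 in LPS (-1.70 ± 0.11, adjusted p = 3e-05). Atf5 read 10.23 and 10.22 in control, 11.37 and 11.57 in M and 10.05 and 9.99 in LPS (-1.45 ± 0.08, adjusted p = 1.22e-05). In both genes M lay above control and LPS, and LPS lay below control in Chac1 and just below it in Atf5. The others lower in LPS were Nupr1, Pck2, Sesn2, Jdp2, Ddit3, which encodes CHOP, the amino acid transporters Slc1a4, Slc38a2 and Slc7a1, and asparagine synthetase Asns. Asns read 13.41 and 13.35 in M and 12.74 and 12.80 in LPS (-0.61 ± 0.06), close to the fold minimum. Atf3 was the exception, at 10.19 and 10.25 in M and 11.14 and 11.21 in LPS (0.95 ± 0.09), and Atf4 was not called (-0.32 ± 0.09).

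The promoters of Chac1 (chr2:119350992-119351241, plus strand) and Asns (chr6:7693210-7693459, minus strand) each hold 1 match to TGATGNAA on either strand, the letters of an amino acid response element, which bind ATF4 with C/EBP partners. Capitals mark the match.
Chac1: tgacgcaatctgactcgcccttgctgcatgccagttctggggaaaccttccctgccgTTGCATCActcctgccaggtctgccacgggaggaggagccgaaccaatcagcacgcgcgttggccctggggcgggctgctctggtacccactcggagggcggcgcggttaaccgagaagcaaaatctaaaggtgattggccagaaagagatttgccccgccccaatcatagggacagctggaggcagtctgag
Asns: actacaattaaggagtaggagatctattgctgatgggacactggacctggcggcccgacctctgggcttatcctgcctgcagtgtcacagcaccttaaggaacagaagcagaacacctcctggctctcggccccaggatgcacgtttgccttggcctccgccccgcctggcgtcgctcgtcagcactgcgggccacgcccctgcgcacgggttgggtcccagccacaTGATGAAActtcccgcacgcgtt
Of the 14 called genes of the list 6 hold these letters, namely Asns, Atf3, Chac1, Jdp2, Nupr1 and Pck2. Atf3 holds them and was higher in LPS, and Ddit4 and Trib3 have no match in this window. The letters occur in 3.45% of all promoters, in 2.4% of tested genes with a promoter, in 4.41% of genes lower in LPS (21 of 476) and in 3.34% of genes higher in LPS (11 of 329).

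Over all tested genes 11.3% were called in either direction, and other stress programmes were near or below this share apart from the NRF2 targets (22.2%). Of 18 aminoacyl-tRNA synthetases the cysteine and alanine enzymes Cars (-0.84 ± 0.07) and Aars (-0.59 ± 0.08) were lower in LPS and none was higher. Of 23 chaperones and sensors of the endoplasmic reticulum the oxidase Ero1a was lower (-0.79 ± 0.08). Another Ero1a probe set gave -0.72 and was called, while a further one gave -0.33 and was not. Of 13 cytosolic heat shock genes none was called by limma or by Welch's test, with 3 higher and 4 lower at an unadjusted p under 0.05 and values from -0.44 to 0.23. Among 18 antioxidant targets of NRF2, heme oxygenase Hmox1 (0.59 ± 0.06) and the glutathione transferase Gsta3 (0.63 ± 0.08) were higher, and Osgin1 (-0.70 ± 0.11) and the cystine transporter Slc7a11 were lower. Slc7a11 read 6.24 and 6.63 in control, 9.44 and 9.40 in M and 8.65 and 8.64 in LPS (-0.78 ± 0.12), so that both treatments lay above control, by 2.99 for M and 2.21 for LPS.

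Genes of cholesterol synthesis were higher in LPS than in M, and it was M that lay away from control. Of 21 tested genes 8 were higher and none lower, with a median of 0.53, beside medians of 0.03 for LPS and -0.55 for M against control. Idi1, an isomerase of the isoprenoid pathway, read 11.50 and 11.47 in control, 10.29 and 10.26 in M and 11.64 and 11.71 in LPS (1.40 ± 0.07, adjusted p = 8.53e-06). Hsd17b7, a sterol ketoreductase, read 9.80 and 9.84 in control, 8.77 and 8.87 in M and 10.20 and 10.28 in LPS (1.42 ± 0.08). In both genes the M arrays lay below control and the LPS arrays above it. Mvd (1.00 ± 0.07), the SREBP retention factor Insig1 (0.96 ± 0.09), Fdft1, Hmgcs1, Cyp51 and Sqle were also higher. The LXR targets for sterol export went the other way, Abca1 by -2.28 ± 0.09 and Abcg1 by -0.80 ± 0.09, with a second Abcg1 probe set at -0.14 that was not called. The lipase Lpl (0.92 ± 0.07) and the fatty acid synthase Fasn (0.68 ± 0.08) were higher in LPS. The other 9 of these 13 genes were not called.

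**Figure D4:**
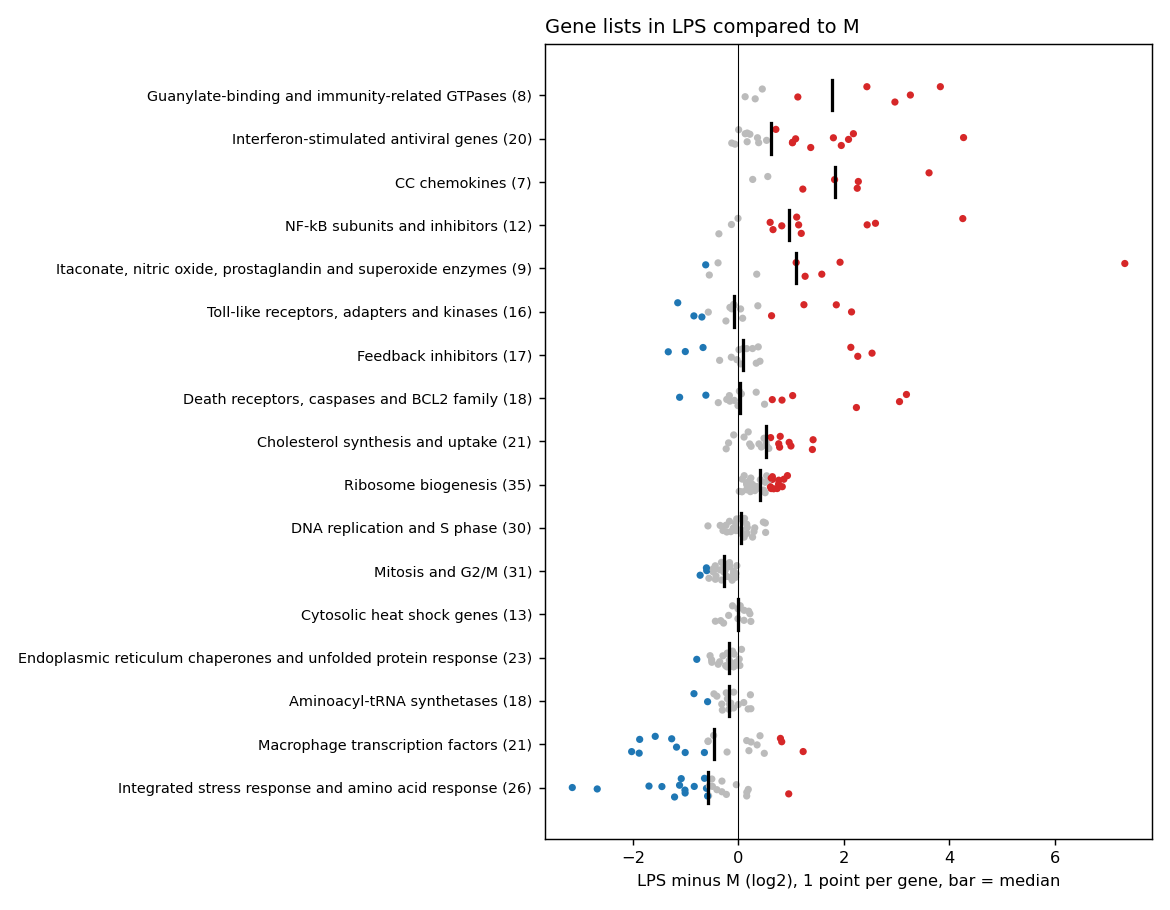
LPS minus M (log2, x axis) for the tested genes of 17 lists, 1 point per gene with the number tested in parentheses, red where called higher in LPS, blue where called lower and grey where not called. Black bars are medians, which run from 1.82 for CC chemokines to -0.58 for the integrated stress response.

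Transcription factors of macrophages included more genes lower than higher in LPS, 8 against 3 of 21 tested, with a median of -0.47. Over all tested genes, too, more were called lower (6.7%) than higher (4.59%). With no filter on low values the median over the 30 factors on the array was -0.02, with 7 lower and 3 higher. The zinc finger factor Klf4 read 9.57 and 9.37 in control, 10.21 and 10.24 in M and 8.23 and 8.16 in LPS (-2.03 ± 0.10). The aryl hydrocarbon receptor Ahr (-1.88 ± 0.12), the orphan nuclear receptor Nr4a2 (-1.58 ± 0.18) and Cebpa (-1.89 ± 0.25) were lower too, as were Egr1, Bhlhe40, Nfil3 and Mef2c. Klf2 (1.23 ± 0.18), Maf (0.82 ± 0.11) and Cebpd (0.80 ± 0.08) were higher. In Maf both treatments lay below control (11.54 and 11.49), with M at 10.14 and 9.98 and LPS at 10.87 and 10.89. Of 15 AP-1 and immediate-early genes only the kinase Plk2 was called (1.44 ± 0.06), 6.67% of the list beside 11.3% of all tested genes.

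Of 14 tested chemokine and cytokine receptors 2 were higher in LPS, 2 were lower (Il18rap and Cxcr4) and 10 were not called, with a median of 0.04. Called in either direction were 28.6% of them, beside 11.3% of all tested genes. Cxcr4, the receptor for CXCL12, read 12.01 and 11.91 in control, 12.61 and 12.52 in M and 10.66 and 10.38 in LPS (-2.04 ± 0.10, adjusted p = 6.43e-06), while the TNF receptor Tnfrsf1b (1.31 ± 0.08) and the fractalkine receptor Cx3cr1 (0.65 ± 0.09) were higher in LPS. The prostaglandin E2 receptors that raise cyclic AMP were set apart in opposite directions. Ptger4 read 9.96 and 9.97 in M and 11.85 and 11.78 in LPS (1.85 ± 0.07), and Ptger2 read 10.08 and 10.09 in M and 8.33 and 8.35 in LPS (-1.74 ± 0.08). LPS was called higher than control in Ptger4 (1.33), and M was called higher than control in Ptger2 (1.68). Of 14 tested purine and lipid receptors Gpr85 (2.50 ± 0.08), Gpr84 and Gpr18 were also higher in LPS, and Gpr35 (-1.92 ± 0.19) and S1pr1 were lower. Of 18 lectins, scavenger and TREM receptors Marco, the mycobacterial sensor Clec4e (1.13 ± 0.08), Clec4a2 (0.67 ± 0.10) and Pilra were higher in LPS. A second Clec4a2 probe set gave -0.06 and was not called. Trem1, which amplifies inflammatory signals, was lower at 9.20 and 9.19 in M and 7.61 and 7.79 in LPS (-1.49 ± 0.09). Of the lectin, scavenger and TREM list 27.8% and of the purine and lipid receptors 50% were called, beside 11.3% of all tested genes.

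Of 19 adhesion and migration genes Pstpip2 (2.93 ± 0.19) and Itga4 were higher in LPS, and Cytip, Itgav (-1.03 ± 0.07), Itga6 (-0.89 ± 0.09) and Itgb5 were lower. The mean of Pstpip2 in M (4.04) lay under the minimum level, so that its fold is imprecise. Of 26 glycosyltransferases and related Golgi genes the xylosyltransferase Xylt2 (1.61 ± 0.06), St3gal1 and B4galt6 were higher, and 5 were lower, led by the sialyltransferase St6gal1 at 6.91 and 7.06 in M and 4.60 and 5.08 in LPS (-2.14 ± 0.14). Galnt3 (-1.56 ± 0.14) and St8sia4 (-1.18 ± 0.07) were next. A second St8sia4 probe set gave -0.63 and was not called. Among 14 p53 targets Gadd45b was higher (1.45 ± 0.10), and Trp53inp1 (-1.58 ± 0.10), Gadd45a (-1.50 ± 0.08), the cell cycle inhibitor Cdkn1a (-1.11 ± 0.06) and Phlda3 were lower. Called were 31.6% of the adhesion list, 30.8% of the Golgi list and 35.7% of the p53 targets, beside 11.3% of all tested genes.

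Genes that build ribosomes, listed with the transcription factor Myc, were higher in LPS by small amounts. All 35 tested genes had a difference above 0, from 0.01 to 0.93, with a median of 0.41, and 12 passed the fold minimum and test, led by Myc (0.93 ± 0.07), Rrp1b (0.86 ± 0.08), Tsr1 (0.83 ± 0.07) and Polr1b (0.76 ± 0.11). Further probe sets of Rrp1b gave 0.20 and 0.34 and were not called. With the median of all probe sets made equal between arrays 34 of the 35 lay above 0. Myc, known as a regulator of such genes, read 7.02 and 7.02 in M and 7.96 and 7.94 in LPS. Its part in their differences was not tested. All 31 mitotic genes lay below 0, from -0.73 to -0.03, with a median of -0.27, where 5234 of all 8908 tested genes lay below 0. Called lower were 3 of them (9.68%, beside 6.7% of all tested genes), Cenpf (-0.73 ± 0.09), Prc1 (-0.61 ± 0.06) and Nusap1 (-0.60 ± 0.06). A second Prc1 probe set gave -0.38 and was not called. With the median of the tested genes made equal between arrays 29 of the 31 lay below 0 and 1 was called. Of 30 DNA replication genes none was called by limma or by Welch's test, with 6 higher and 3 lower at an unadjusted p under 0.05 and a median of 0.04. Against control the medians of the replication genes were -0.46 in LPS and -0.51 in M.

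Of 23 genes of glycolysis and the hypoxia response the hexokinase Hk2 was higher in LPS (0.84 ± 0.06), and Hk1 (-0.65 ± 0.09), Ndrg1 (-0.84 ± 0.07) and Egln1 (-0.59 ± 0.07) were lower. Of 33 autophagy and lysosome genes Mitf was higher (1.03 ± 0.08) and Ulk1 lower (-1.06 ± 0.15). A second Mitf probe set gave 0.15 and was not called, and Ulk1 was not called by Welch's test. Of the autophagy list 6.06% and of the glycolysis list 17.4% were called, beside 11.3% of all tested genes. Of 9 clock genes Rora (-1.03 ± 0.24) and Nr1d2 (-0.65 ± 0.08) were lower (22.2% called). Of 7 osteoclast genes Car2 was higher (0.68 ± 0.07) and Nfatc1 lower (-0.76 ± 0.06), 28.6% of that list. None of 4 tested TRP channels was called by limma or by Welch's test, with 1 higher and 1 lower at an unadjusted p under 0.05. The difference of Rora was not called without LPS replicate 1 (-0.68) or without M replicate 1 (-0.75).

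Of 30 tested genes that the study names for these arrays 18 were higher in LPS than in M and 5 lower. The study chose them on these samples, so that their direction is not independent evidence. Beyond the genes above, Cd52 (0.69 ± 0.08), the mitochondrial ribosomal gene Mrpl52 (0.67 ± 0.07) and the kinase Riok3 (0.61 ± 0.10) were higher, and Ypel3 (-1.74 ± 0.09), the palmitoyltransferase Zdhhc14 (-1.25 ± 0.10), Gcnt1 (-0.97 ± 0.07) and Mier3 (-0.63 ± 0.10) were lower. Gorasp2 (-0.20 ± 0.07), Septin11 (0.38 ± 0.07), Tes (0.08 ± 0.09), Wdr43 (0.51 ± 0.08), Wwp1 (-0.07 ± 0.08) and Zfp408 (0.02 ± 0.08) were not called. Other probe sets were called for Wdr43 (1.04), Septin11 (0.98) and Gorasp2 (-0.61). A further Riok3 probe set gave 0.20 and was not called, while another gave 0.72 and was called. For Zdhhc14 a further probe set gave -0.39 and was not called, while its other probe sets above the minimum were called lower. Tes read 10.74 and 10.80 in control, 11.43 and 11.41 in M and 11.60 and 11.41 in LPS, above control in both treatments.

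The combined treatment gives a second reading of the same genes, because LPS+M and control share no array with LPS and M. Over all tested genes 5.53% were higher and 4.3% lower in LPS+M than in control. Of the 409 genes higher in LPS than in M, 124 (30.3%) were higher in LPS+M than in control and 36 (8.8%) lower, with a median of 0.21. Of the 597 genes lower in LPS than in M, 108 (18.1%) were higher in LPS+M than in control and 59 (9.88%) lower, with a median of 0.18. Genes that set the treatments apart were thus called more often than the background in either direction, on both sides, and most of them were not called in LPS+M compared to control (249 and 430 genes). All 8 arrays enter 1 estimate of the spread.

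Members of 1 group could differ in this reading. Acod1 read 10.79 and 10.66 in LPS+M (6.29 against control), Saa3 10.84 and 10.63 (3.62) and Cd40 11.11 and 10.97 (2.80). Saa3 in LPS+M lay below LPS by a call (-1.56). Ifit1 read 4.14 and 4.59 (0.52), which was not called, and its LPS+M arrays lay next to the control arrays (3.86 and 3.84). Gbp7 (-0.00) and Rtp4 (-0.52) were not called either, and Usp18 was lower than control (-0.71). In Ifit1 and Gbp7 the control and LPS+M arrays all lay under the minimum level, so that the gap between them is weakly measured. Among chemokines Ccl3 was higher (1.64), and Ccl2 (-0.75) and Ccl12 (-0.89) were lower.

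Some genes lower in LPS than in M were near their M level in the combined treatment. Ddit4 read 9.14 and 9.12 in LPS+M beside 9.19 and 9.21 in M (2.34 against control), Trib3 read 10.89 and 11.06 beside 11.07 and 11.08 (1.81), and Chac1 read 9.04 and 9.11 beside 8.84 and 8.86 (1.32). Cd86 (1.17) and Ptger2 (1.54) were also higher than control. Cytip (-0.30), Ctla2a (-0.02), Pde3b (0.07) and Pxdc1 (0.03) were not called, and Il18rap was lower (-1.32). Of the cholesterol genes Idi1 was lower than control (-1.10), and the median of that list was -0.52.

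**Figure D5:**
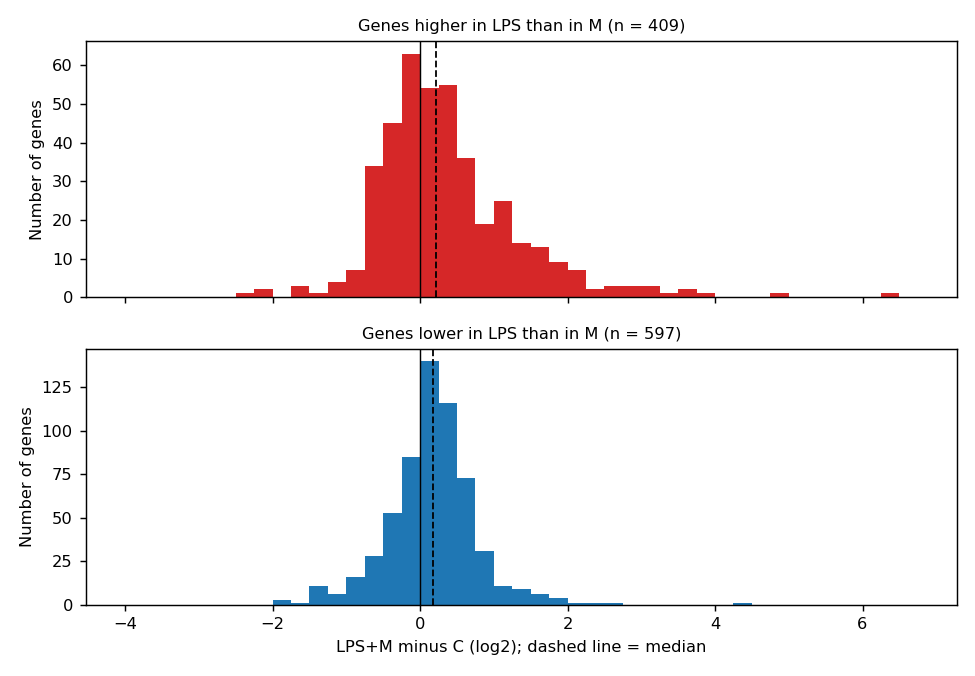
Number of genes (y axis) by their difference between LPS+M and control (log2, x axis), for the 409 genes higher in LPS than in M (top) and the 597 lower (bottom). Dashed lines are medians, 0.21 and 0.18, and the upper panel has the longer right tail, which ends with Acod1 at 6.29.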

How the data were processed

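The authors hybridised biotin-labelled RNA to Affymetrix mouse arrays and deposited log2 values, for which the submitters' processing notes name GCRMA 2.10.0 and R 2.6.1. This method corrects background by probe GC content, normalizes between arrays and compresses differences at low levels. Each gene took the probe set with a single symbol (34945 of 45101) and the highest mean over the 8 arrays, and was kept if this mean passed 4.838, the average over all probe sets. LPS and M were compared with limma 3.58.1 (lmFit and eBayes, R 4.3.3) on all 8 arrays, with 4 residual and 3.778 prior degrees of freedom. Calls needed an adjusted p (Benjamini-Hochberg, over the kept genes) under 0.05 and at least a 1.5-fold difference. The study's methods use Welch's test with the same fold minimum, which was run as an alternative. With 2 arrays per group the smallest two-sided p of an exact permutation test is 0.333, so none was run. The number of arrays limits the precision: standard errors of called genes ran from 0.0564 to 0.353.

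Values are given for the 12 called genes with the largest rise and the 12 with the largest fall, up to 6 in each direction with opposed changes against control, up to 4 called members of each list, all members of lists that hold under 13, and genes the study names. Tlr4, Atf4, Atf3, Asns, Alox5, Klf2, Maf and Cebpd, and list members named without values, were added after their values were seen. Genes under the filter come from the unfiltered fit. The comparison, lists and rules were chosen with earlier results of these data known. The script was tested on simulated data.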

Additional observations from a re-analysis of the deposited data

How the results depend on the processing

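Of the 145 genes followed one by one, no called gene changed sign under the alternatives run on them, while Tes, Wwp1 and Zfp408, which were not called and lay near 0, did. Among other probe sets of called genes 1 was called in the opposite direction. Some list medians changed sign too, that of the inflammatory cytokines from -0.27 to 0.03 with no filter on low values, that of all tested genes likewise from -0.06 to 0.01, and that of the clock genes from -0.05 to 0.03 with quantile normalization. Other medians became smaller in size with no filter. That of the GTPases went from 1.78 to 0.45 and that of the CXC chemokines from 1.24 to 0.03. The enzymes of inflammatory metabolites went from 1.09 to 0.16 and the macrophage transcription factors from -0.47 to -0.02. The counts of genes higher and lower in LPS than in M (409 and 597) became 156 and 173 with a 2-fold minimum and 1281 and 2169 with no fold minimum. With the mean of all probe sets of a gene 384 genes were lower, and 38 genes lower in LPS than in M were lower in LPS+M than in control, in place of 59. The methods' t-test, run on the same values, called 298 genes higher and 342 lower at an unadjusted p under 0.05 and 0 and 0 after Benjamini-Hochberg adjustment, where limma with an unadjusted p called 411 and 604. Leaving out each array in turn gave 396 to 439 genes higher and 556 to 679 lower, and 119 to 129 and 51 to 66 for the LPS+M counts of 124 and 59, with the lone array of a group assumed to vary like the other groups. Equal medians of all probe sets gave 388 and 642, and equal medians of the kept genes, chosen after seeing the data, 474 and 495. The replicate number as a replicate block gave 410 and 600, with LPS+M counts of 124 and 59, and changed no call of these 145 genes. The deviations of same-numbered arrays correlated at -0.121 to 0.186, which cannot tell whether these arrays were handled together. Of the 145 genes, 22 lost their call when probe sets were averaged (Slc7a11 at -0.39 and Nr4a2 at -0.50 among them), 23 with the methods' t-test (Cebpa, Havcr2, Map3k5, Pde3b, Il18rap and Rsad2 among them) and 4 with quantile normalization. The causes were not tested. Aars, Egln1, Nusap1, Prc1, Mier3, Tyk2, Hmox1, Gsta3, Cx3cr1, Hk1 and Osgin1 lay so close to the fold minimum that a shift of the arrays or leaving out 1 array ended their call. Calls were gained by Ccl9 (0.65) and Wdr43 (0.77) when probe sets were averaged. Signal near background limits the folds of genes whose M or LPS arrays lie under the minimum level.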
